A study of Rattus norvegicus with 12 samples.

Results

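The posterior cricoarytenoid muscle (PCA) of rats with a cut laryngeal nerve was compared with the PCA of control rats 1 week after surgery. The comparison used the 3 arrays titled as PCA with nerve injury and the 3 titled as PCA control, 6 of the 12 arrays of the study. It covered every probe set to which the platform annotation gives 1 gene symbol, and where a symbol had several, the probe set whose mean over the 12 arrays was highest, which gave 14329 genes. All rats were males of the inbred strain F344, and the labels name no engineered allele. In the injured group the recurrent laryngeal nerve of 1 side had been cut and 1 cm of it taken out, whereas in the control group the operation left the nerve unharmed; both were done under injected anaesthesia. Each kind of surgery had 10 animals, but the labels do not say which animal or which side gave an array, whether tissue was pooled, or how old the animals were. The p-values below therefore measure the spread between arrays, which may be technical. The other 6 arrays hold the laryngeal adductor complex (AC) after the same operations. They entered the estimate of the spread, and for a few genes their difference is given as well.

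Values are the deposited log2 expression levels, so that 1 unit is a 2-fold difference, and a level compares 1 gene between arrays, not a gene with another gene. A difference is the mean of the 3 injured arrays minus the mean of the 3 control arrays, ± its standard error from limma, a linear model fitted to all genes with a moderated spread. A gene is said to have risen or fallen where the p-value of limma, adjusted by Benjamini-Hochberg over the 14329 genes, was under 0.05, and such a gene is said to have passed. Per-array levels are given for arrays 1 to 3 in that order, and the numbers are not read as pairing injured with control arrays.

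The PCA is the muscle that opens the vocal folds, and its motor axons reach it through the recurrent laryngeal nerve. A muscle fibre cut off from its axon loses both the command to contract and the contact at its junction, and in the weeks that follow it is known to thin, to take down its contractile apparatus and its oxidative enzymes, and to make receptors along its whole surface. The tissue around such fibres is known for an influx of macrophages, growth of connective tissue and division of non-muscle and satellite cells. A PCA specimen lies on the cricoid cartilage close to fat, the lining of the pharynx and the thyroid gland, so a dissected piece can hold other tissue as well.

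In injured PCA 3697 genes (25.8%) passed, of which 1900 (13.3%) rose and 1797 (12.5%) fell. The median difference over all 14329 genes was -0.03. Of the genes that rose, 725 did so by under 0.5, 722 by 0.5 to 1, 359 by 1 to 2 and 94 by 2 or more on the log2 scale. Of the genes that fell, the same classes held 864, 734, 184 and 15. At least 2-fold differences were thus found for 453 genes that rose (3.16%) and 199 that fell (1.39%). Without regard to the test, the 3 injured and the 3 control arrays did not overlap in 5307 genes (37.0%), 2611 with injured PCA higher (18.2%) and 2696 with it lower (18.8%). With both PCA groups fitted alone, 1263 genes rose and 994 fell. The count of genes that fell was 1127 without injured array 1 and 1105 without control array 3, while the same counts without any other single PCA array, and all counts of genes that rose, stayed within 1.5 times the full count. Without the 3 arrays with high thyroid transcripts (injured array 2, control array 1 and 1 injured array of the AC; called the high-thyroid arrays below), 1243 genes rose and 1092 fell.

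The labelled tissue was checked against marker genes of muscle and of other cell types, each summarised as the mean log2 level of its measured markers in an array. The muscle fibre score of 12 markers was 11.33, 11.71 and 12.42 in injured PCA and 12.44, 12.63 and 12.50 in control PCA, and 5 of the 12 fell and 0 rose (unadjusted p under 0.05 in 10 lower and 0 higher). Of its defining markers, the skeletal actin Acta1 had 13.48, 13.51 and 13.62 in injured PCA and 13.54, 13.68 and 13.55 in controls and did not pass, nor did the creatine kinase Ckm (-0.27 ± 0.11, adjusted p = 0.115) or the fast light chain Myl11 (-0.40 ± 0.19, adjusted p = 0.154). Macrophage markers were all higher in injured PCA (13 of 13 rose; score 10.26, 9.83 and 9.86 in injured PCA against 8.22, 8.94 and 8.55 in controls), and 7 of 11 fibroblast markers rose (11.09, 10.92 and 10.80 in injured PCA against 10.12, 10.47 and 10.29 in controls). Chondrocyte markers fell in 10 of 11 cases (8.46, 8.40 and 8.06 in injured PCA against 9.51, 9.17 and 9.81 in controls), as did 10 of 11 adipocyte markers (7.66 to 8.27 in injured PCA against 8.86 to 9.29 in controls). Squamous epithelium markers rose in 10 of 11 cases (10.02, 10.46 and 10.65 in injured PCA against 8.27, 9.63 and 7.57 in controls), and control array 2 stood close to the injured arrays in that score. The thyroid and parathyroid score was highest on injured array 2 and control array 1 (6.77, 9.80 and 6.39 in injured PCA against 10.03, 6.33 and 7.17 in controls). Thyroglobulin (Tg), a defining marker, was not limited to them, with 11.34, 13.91 and 8.44 in injured PCA and 13.93, 5.96 and 13.10 in controls, and parathyroid hormone (Pth) had 7.90, 13.29 and 5.38 in injured PCA and 13.45, 5.06 and 5.12 in controls, so leaving out both arrays leaves some thyroid transcript in each group. Of the other lists, tendon markers fell in 5 of 7 cases and rose in 1, and Schwann cell markers fell in 3 of 9 and rose in 1. T and NK cell markers rose in 3 of 13 (Cd2, Cd4 and Il7r). Their defining markers Cd3e (0.09 ± 0.17, adjusted p = 0.765) and Cd3d (-0.03 ± 0.12, adjusted p = 0.892) did not pass in limma. Pericyte markers rose in 2 of 10 and fell in 1, and airway markers rose in 1 of 11 and fell in 2. Neutrophil markers rose in 1 of 10, and B cell markers fell in 1 of 5. No marker of endothelium (0 of 8), thyroid (0 of 13), mast cells (0 of 9) or red cells (0 of 6) passed limma's test in either direction, and the unadjusted p was under 0.05 for 0 of each. In whole tissue, fewer cells of a type and less RNA per cell cannot be told apart. With the macrophage score as a covariate in limma 0 genes passed (unadjusted p under 0.05 in 782 higher and 467 lower), and with the squamous score 223 rose and 307 fell. Both scores separated the injured from the control PCA arrays, so in these fits score and injury cannot be told apart. The part of the other tissues in the results below was not tested, and for some gene groups a score is given beside them.

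**Figure D1:**
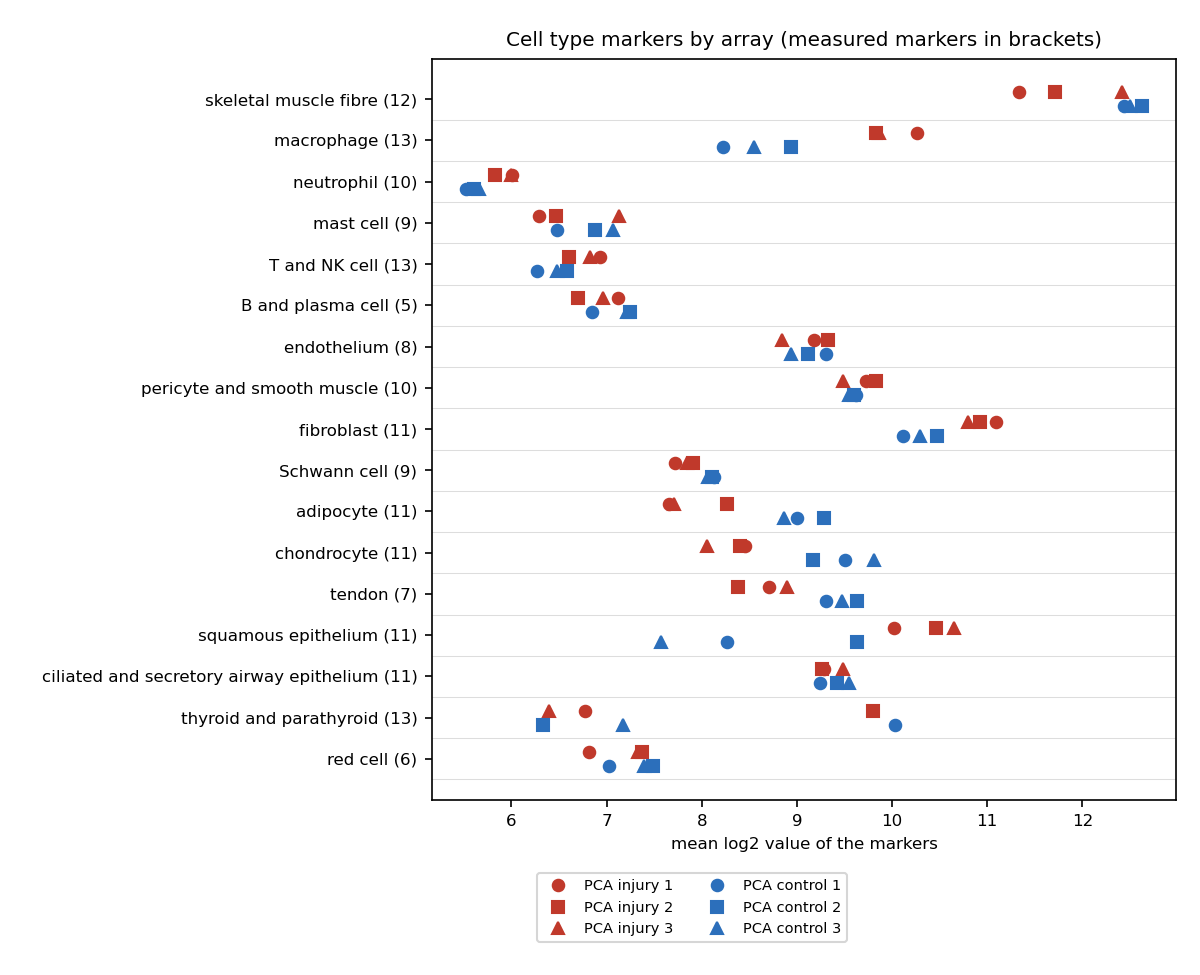
Mean log2 level of the markers of 17 cell types (rows, number of measured markers in brackets) on each of the 3 injured (red) and 3 control (blue) PCA arrays; circle, square and triangle are arrays 1, 2 and 3. Macrophage and squamous scores were higher and chondrocyte and adipocyte scores lower on every injured array, the muscle fibre score of injured array 3 (12.42) lay next to the controls, and thyroid scores of 9.80 and 10.03 stand apart on injured array 2 and control array 1.

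The 3 injured arrays did not differ from the controls to the same extent. For each gene with an at least 2-fold difference, the distance of 1 injured array from the control mean was divided by the mean distance of the other 2 injured arrays, so that 1 means as far as the others and 0 means at the controls. Over the 199 genes that fell, the median position was 1.34 for injured array 1, 1.11 for injured array 2 and 0.64 for injured array 3 (quartiles 0.45 and 0.95). In 61 of the 199 genes, injured array 3 lay less than 0.5 of the way, and in 4 (2.01%) it lay inside the range of the controls, against 0 for each of the other injured arrays. Over the 453 genes that rose, the medians were 1.16, 0.90 and 1.02. For injured array 3 these positions went both ways (quartiles 0.83 and 1.27), with 236 of the 453 over 1. Among these 453 genes, injured array 1 lay inside the range of the controls in 11 (2.43%), against 1 for each of the other injured arrays. The median distance itself was -1.48, -1.34 and -0.96 for genes that fell and 1.51, 1.29 and 1.45 for genes that rose. The positions rest on the same arrays as the calls and are a description.

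**Figure D2:**
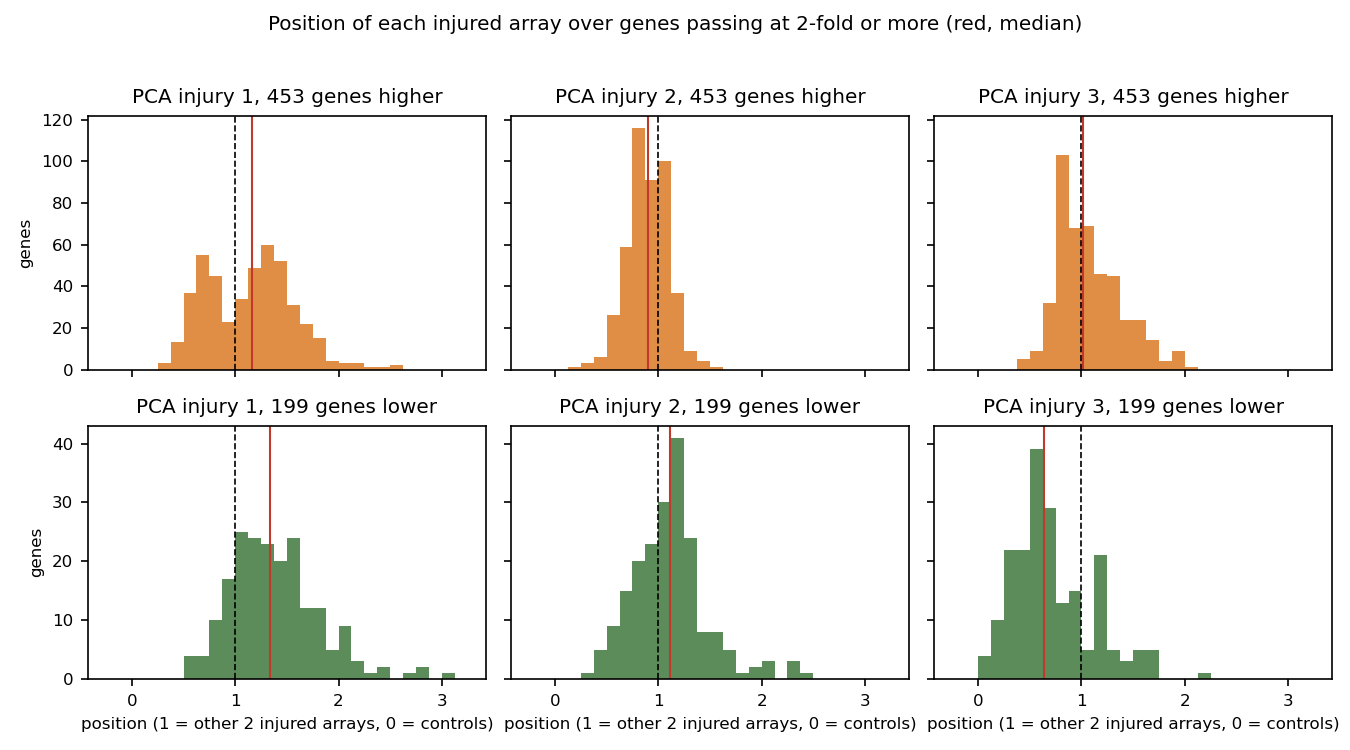
Number of genes (vertical axes) by position of injured array 1, 2 and 3 (columns), for the 453 genes that rose by at least 2-fold (top row) and the 199 that fell by at least 2-fold (bottom row). A position of 1 (dashed) is the mean of the other 2 injured arrays and 0 is the control mean; the red line is the median. For genes that fell, injured array 3 has its median at 0.64, whereas in the top row its median is 1.02.

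The description now follows 43 gene lists with measured members, from the fibre's own machinery to the cells around it. A list is described by the number of its measured members that passed in each direction, to be read against the 13.3% and 12.5% of all genes, and by its median difference, to be read against -0.03.

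**Figure D3:**
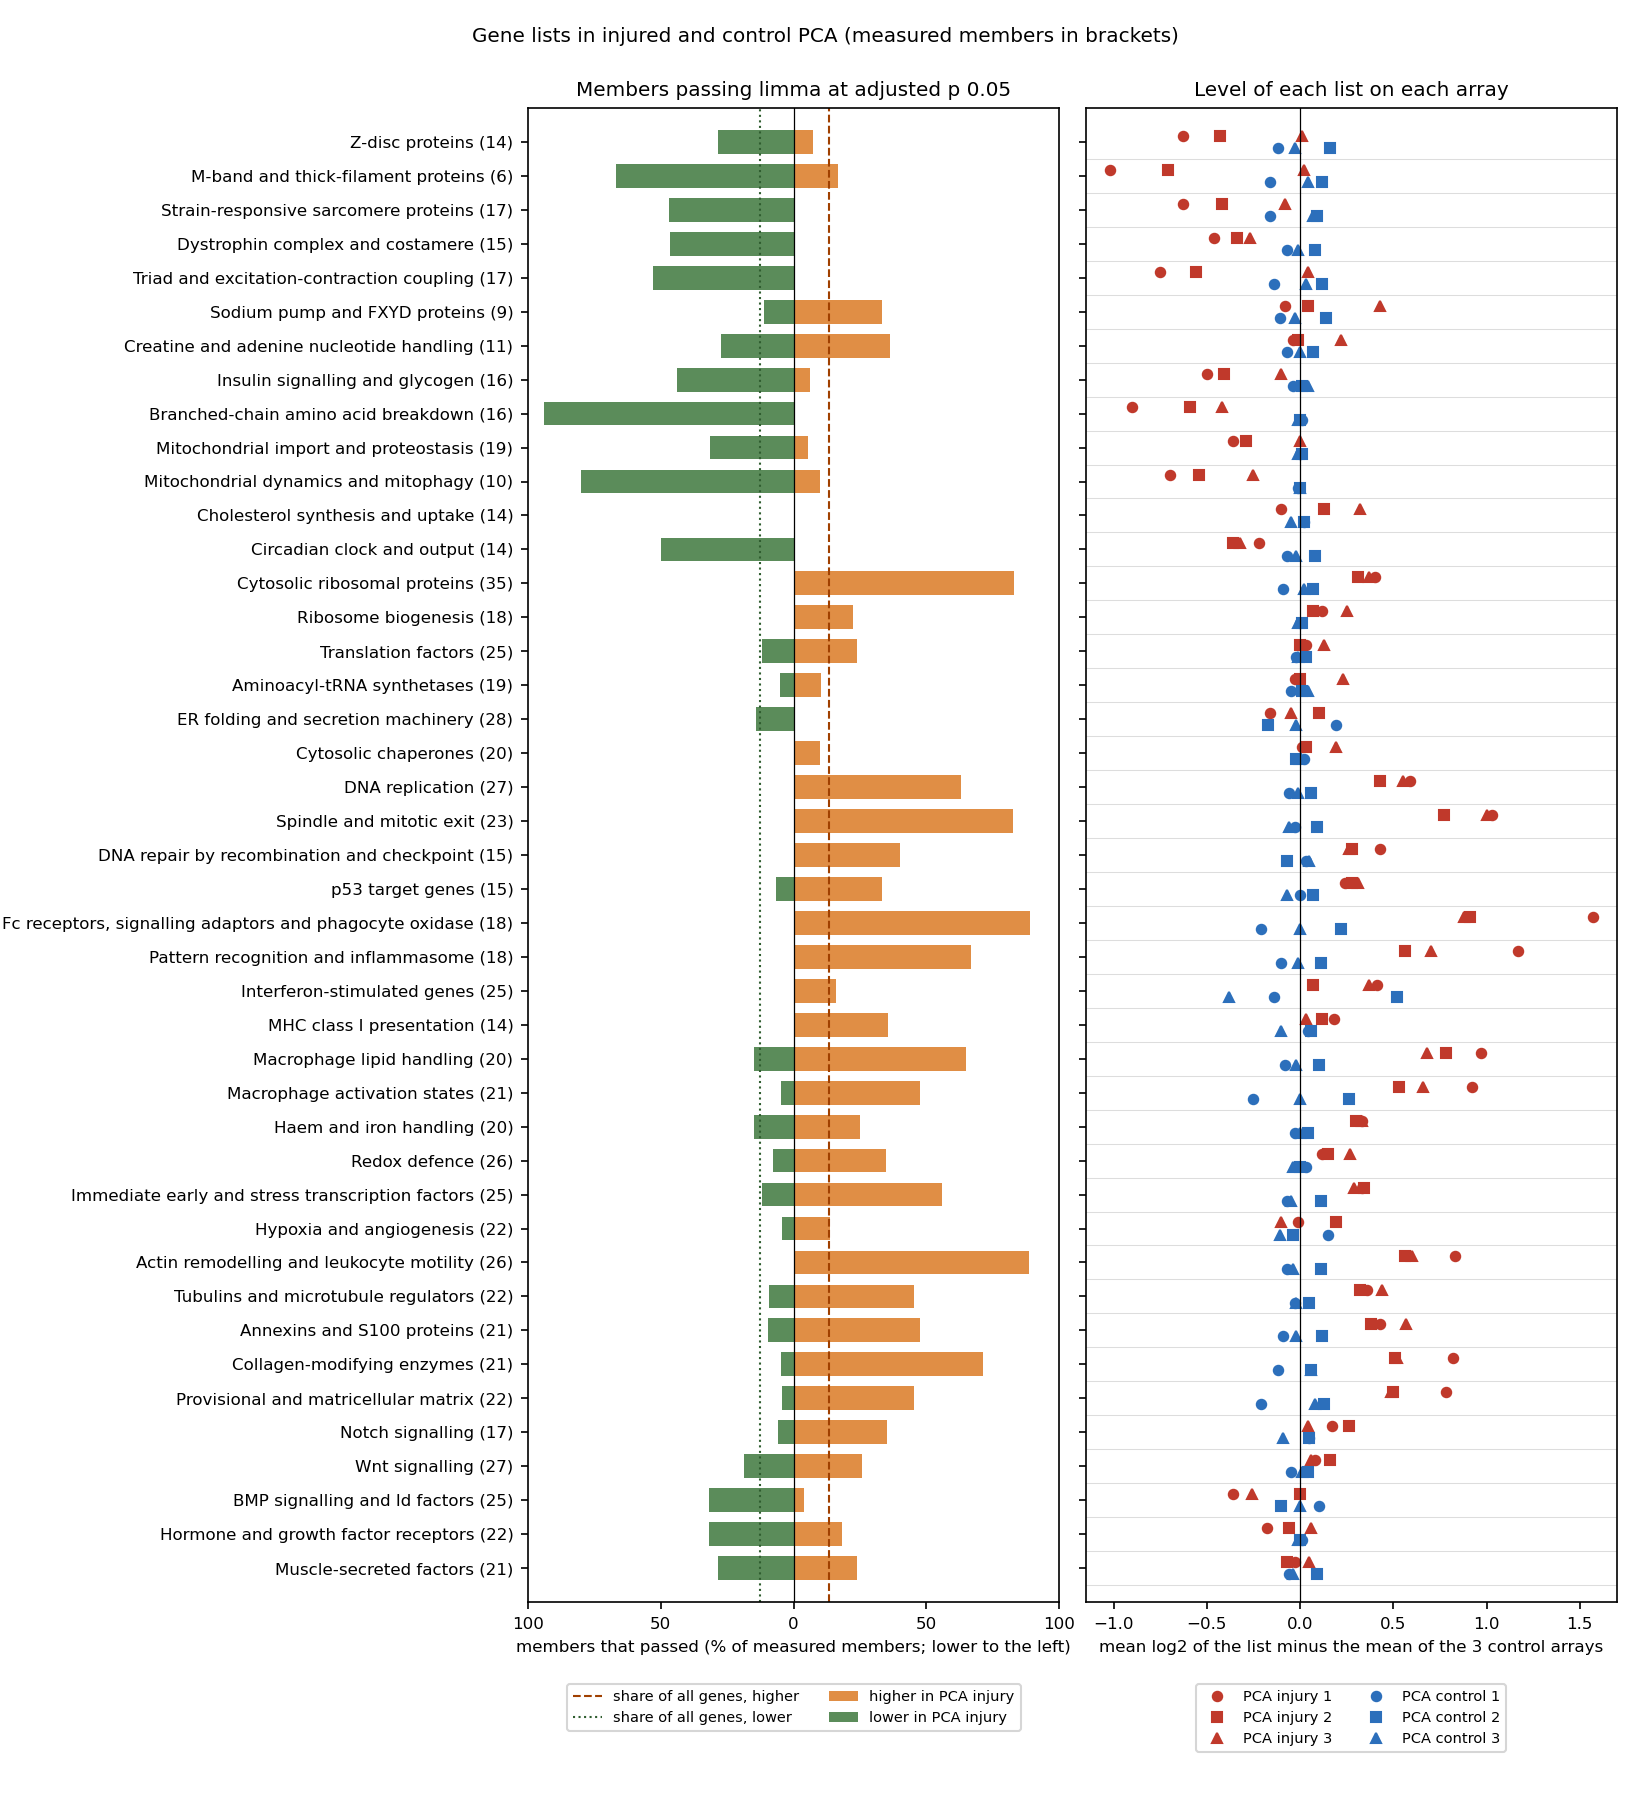
Left, share of the measured members of each of 43 gene lists that rose (orange, to the right) or fell (green, to the left) in injured PCA, with the shares over all genes as dashed and dotted lines (13.3% and 12.5%). Right, mean log2 level of each list on each injured (red) and control (blue) array minus the control mean; circle, square and triangle are arrays 1, 2 and 3. The sarcomere, dystrophin complex and triad lists lie lower on injured arrays 1 and 2, with injured array 3 near 0 in several, while the dividing-cell, phagocyte, actin and ribosome lists are higher on all 3 injured arrays.

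Structural proteins of the sarcomere were lower on injured arrays 1 and 2. Of 14 Z-disc proteins 4 fell and 1 rose (median -0.43), and of 6 proteins of the M-band and thick filament 4 fell and 1 rose (median -0.95). The mean level of the Z-disc list was 0.63 and 0.43 below the control mean on injured arrays 1 and 2 and 0.01 above it on injured array 3. Smyd1, a methyltransferase needed to assemble thick filaments, had 9.43, 9.64 and 10.49 in injured PCA and 10.84, 11.18 and 11.09 in control PCA (-1.18 ± 0.23, adjusted p = 0.00403). Myom1, the myomesin that crosslinks thick filaments in the M-band, had 9.17, 9.43 and 10.18 in injured PCA and 10.40, 10.73 and 10.62 in controls (-0.99 ± 0.23, adjusted p = 0.00955). The slow-type myosin-binding protein gene Mybpc1 had 10.99, 11.19 and 11.67 in injured PCA and 12.14, 12.26 and 12.17 in controls (-0.91 ± 0.16, adjusted p = 0.00228). In all 3 genes every injured array was below every control, and injured array 3 was the nearest to them. The fast-type gene Mybpc2 had 9.77, 10.40 and 11.49 in injured PCA and 11.60, 11.79 and 11.39 in controls (-1.04 ± 0.35, adjusted p = 0.0486), with injured array 3 inside the control range. At the Z-disc, the spring protein titin (Ttn) had 12.26, 12.42 and 12.60 in injured PCA and 12.94, 13.05 and 13.05 in controls (-0.59 ± 0.09, adjusted p = 0.00115). Ldb3 (cypher, -0.83), Myot (myotilin, -0.76) and Actn2 (alpha-actinin 2, -0.42) fell as well. Against this direction, Mybph, a myosin-binding protein known from developing and stressed muscle, had 9.06, 9.22 and 9.83 in injured PCA and 7.79, 8.13 and 8.50 in controls (1.23 ± 0.23, adjusted p = 0.00315), and was highest on injured array 3. Pdlim7, an actin-bound LIM protein that non-muscle cells also make, rose by 0.44. The 4 Z-disc falls were 1 without injured array 1, 2 without injured array 2, 9 without injured array 3, 2 without control array 2, and 1 without the high-thyroid arrays. Its rise was 0 without injured array 1, injured array 2, control array 1, control array 3 or the high-thyroid arrays and 2 without control array 2. The M-band counts stayed within 1.5 times whichever PCA array was left out, without the high-thyroid arrays and with both PCA groups fitted alone, where the Z-disc list had 2 falls and 0 rises.

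Proteins that sense or buffer strain in the sarcomere showed 8 falls and 0 rises among 17 members (median -0.48; unadjusted p under 0.05 in 10 lower and 1 higher). Nrap, which anchors new myofibrils at the fibre's ends, had 10.16, 10.48 and 10.85 in injured PCA and 11.41, 11.66 and 11.59 in controls (-1.06 ± 0.16, adjusted p = 0.00126). Xirp2, an actin-binding repeat protein of the same sites, had 11.15, 11.33 and 12.01 in injured PCA and 12.34, 12.48 and 12.57 in controls (-0.97 ± 0.20, adjusted p = 0.0056). Neither gene's groups overlapped. The titin-linked ankyrin repeat gene Ankrd1, which stretch and stress induce in muscle, fell too (9.90, 10.19 and 10.52 in injured PCA and 10.58, 10.87 and 11.17 in controls, -0.67 ± 0.17, adjusted p = 0.0141). In the AC its difference was 0.75 ± 0.17, and the difference between the muscles was -1.42 ± 0.24 (adjusted p = 0.0537). The small heat shock proteins Hspb7 (-0.66), Hspb6 (-0.48) and Cryab (-0.49), which protect filaments, the filament length regulator Lmod2 (-0.52) and Smpx (-0.58) completed the group. The count of 8 depended on most arrays: it was 3 without injured array 1, 3 without injured array 2, 5 without control array 1, 3 without control array 2, 2 without control array 3, 3 without the high-thyroid arrays and 3 with both PCA groups fitted alone.

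The dystrophin complex ties the fibre's actin to the matrix outside, and 7 of its 15 members fell and 0 rose (median -0.38; unadjusted p under 0.05 in 7 lower and 1 higher). Dystrophin itself (Dmd) had 9.15, 9.37 and 9.35 in injured PCA and 9.61, 9.95 and 9.92 in controls (-0.54 ± 0.10, adjusted p = 0.0031). Nos1, the neuronal nitric oxide synthase that the complex holds at the membrane, had 7.20, 7.44 and 7.95 in injured PCA and 8.46, 8.66 and 8.74 in controls (-1.09 ± 0.19, adjusted p = 0.00211). Sspn (sarcospan) had 9.42, 9.38 and 9.83 in injured PCA and 10.19, 10.61 and 10.55 in controls (-0.91 ± 0.16, adjusted p = 0.00248). In these 3 genes the groups did not overlap, and for dystrophin injured array 3 was no milder than injured array 2. Sgcd (-0.72) and Sgca (-0.69), both sarcoglycans, the dystrobrevin gene Dtnb (-0.44) and the laminin receptor Itga7 (-0.47) also fell. Itga7 differed by 0.28 ± 0.11 in the AC, and the muscles differed by -0.75 ± 0.16 (adjusted p = 0.0684). Utrn, the dystrophin relative that gathers at the neuromuscular junction, did not pass (-0.29 ± 0.16, adjusted p = 0.217). The list's mean was 0.46, 0.34 and 0.27 below the controls on injured arrays 1 to 3, a narrower range than in the sarcomere lists, and 4 genes fell without control array 3, 4 without the high-thyroid arrays and 4 with both PCA groups fitted alone.

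The triad couples the voltage signal of the membrane to calcium release, and 9 of its 17 measured genes fell while 0 rose (median -0.49; unadjusted p under 0.05 in 10 lower and 0 higher). Hrc, a calcium-binding protein inside the sarcoplasmic reticulum, had 8.50, 8.74 and 9.55 in injured PCA and 9.82, 10.07 and 10.06 in controls (-1.05 ± 0.23, adjusted p = 0.00695). Triadin (Trdn), which tethers the release channel, had 10.66, 10.83 and 11.52 in injured PCA and 11.65, 11.75 and 11.76 in controls (-0.72 ± 0.18, adjusted p = 0.0149). Stac3, an adaptor of the voltage sensor, had 9.08, 9.26 and 10.31 in injured PCA and 10.21, 10.54 and 10.51 in controls (-0.87 ± 0.25, adjusted p = 0.0274). For Stac3, injured array 3 lay inside the control range, and the same was true of the release channel Ryr1 (11.12, 11.42 and 11.95 in injured PCA against 11.88, 12.23 and 12.10 in controls; -0.57 ± 0.18), the junctophilins Jph1 (-0.71) and Jph2 (-0.52) and the channel subunit Cacna2d1 (-0.65). Of the 9 that passed, 4 had groups that did not overlap: Hrc, Trdn, the sensor of emptied calcium stores Stim1 (9.35, 9.76 and 9.81 in injured PCA and 10.14, 10.16 and 10.08 in controls, -0.49 ± 0.11) and Mtm1, a phosphatase needed to build triads (-0.45). The list's mean was 0.75 and 0.56 below the controls on injured arrays 1 and 2 and 0.04 above them on injured array 3. Its count was 3 without injured array 1, 3 without injured array 2, 4 without control array 2, 3 without control array 3, 3 without the high-thyroid arrays and 2 with both PCA groups fitted alone.

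Of 9 sodium pump genes 3 rose (33.3%) and 1 fell (11.1%, under the 12.5% of all genes), with a median of -0.06. Fxyd5 (dysadherin), a pump-bound protein known from epithelia and leukocytes, had 10.45, 9.95 and 9.91 in injured PCA and 8.61, 8.88 and 8.59 in controls (1.41 ± 0.18, adjusted p = 0.000501). Fxyd2, the pump's gamma subunit, had 9.35, 9.19 and 9.12 in injured PCA and 8.10, 8.69 and 8.18 in controls (0.90 ± 0.15, adjusted p = 0.00188). The beta 3 subunit Atp1b3 rose by 0.34, whereas beta 1 (Atp1b1), a beta subunit that muscle fibres use, had 11.83, 12.10 and 11.79 in injured PCA and 12.49, 12.33 and 12.36 in controls (-0.49 ± 0.10, adjusted p = 0.00661). All 4 had groups that did not overlap, and without injured array 3 the number that fell was 4. Creatine and adenine nucleotide genes went both ways, with 4 of 11 rising and 3 falling (median 0.04). Among the rises were the brain-type creatine kinase Ckb (9.45, 9.52 and 9.19 in injured PCA and 8.82, 8.86 and 8.68 in controls, 0.60 ± 0.12), Gatm, which makes the precursor of creatine (0.58), and the AMP deaminase Ampd3 (0.59), which denervated muscle is known to induce. Among the falls were the creatine transporter Slc6a8 (-0.34) and adenylosuccinate lyase Adsl (-0.52). The 4 rises were 2 without control array 1 and 1 without the high-thyroid arrays; the 3 falls were 1 without injured array 1, 1 without injured array 2, 5 without injured array 3, 1 without control array 2, 0 without control array 3 and 0 without the high-thyroid arrays. With both PCA groups fitted alone 2 rose and 0 fell.

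Genes by which insulin drives glucose into fibres and glycogen fell in 7 of 16 cases and rose in 1 (median -0.23). Slc2a4 (GLUT4), the glucose carrier that insulin and contraction move to the surface, had 8.87, 9.26 and 10.10 in injured PCA and 10.59, 10.82 and 10.72 in controls (-1.30 ± 0.24, 2.46-fold lower, adjusted p = 0.00291). Ppp1r3a, which holds the phosphatase that activates glycogen synthase, had 8.52, 9.04 and 10.10 in injured PCA and 10.34, 10.70 and 10.47 in controls (-1.28 ± 0.31, adjusted p = 0.0119). Prkaa2, the catalytic subunit of the energy sensor AMPK that muscle favours, had 9.03, 9.53 and 10.30 in injured PCA and 10.46, 10.70 and 10.62 in controls (-0.97 ± 0.25, adjusted p = 0.016). All 3 were lowest on injured array 1 and highest on injured array 3, and no injured array reached a control. Glycogen synthase (Gys1, -0.69), the branching enzyme (Gbe1, -0.62), the insulin receptor substrate Irs1 (-0.46) and Ddit4, an inhibitor of mTOR (-0.68), fell as well. The neuronal and leukocyte glucose carrier Slc2a3 (GLUT3) was the rise, with 7.90, 7.52 and 7.31 in injured PCA and 6.73, 6.92 and 6.96 in controls (0.71 ± 0.15, adjusted p = 0.00582). The falls numbered 4 without injured array 2, 3 without control array 3, 1 without the high-thyroid arrays and 2 with both PCA groups fitted alone.

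Breakdown of branched-chain amino acids, which takes place in the mitochondria of muscle, had the largest share of falls among the 43 lists: 15 of 16 fell and 0 rose (median -0.62; unadjusted p under 0.05 in 15 lower and 0 higher). Pcca, a subunit of propionyl-CoA carboxylase, had 8.14, 8.58 and 8.32 in injured PCA and 9.29, 9.29 and 9.26 in controls (-0.93 ± 0.12, adjusted p = 0.000501). Bckdhb, of the dehydrogenase that commits all 3 amino acids to breakdown, had 8.72, 9.01 and 9.12 in injured PCA and 9.86, 9.93 and 9.96 in controls (-0.97 ± 0.14, adjusted p = 0.000851). Ivd, the leucine pathway's isovaleryl-CoA dehydrogenase, had 9.01, 9.25 and 9.72 in injured PCA and 10.05, 10.22 and 10.18 in controls (-0.82 ± 0.16, adjusted p = 0.00397). In Pcca, the controls spread over 0.03 and injured array 3 was lower than injured array 2. The dehydrogenase's other subunits Bckdha (-0.55) and Dbt (-0.64) fell together with the kinase that restrains them, Bckdk (-0.46). Acadsb (-0.80), Mcee (-0.72), Aldh6a1 (-0.69), Mccc2 (-0.67), Mccc1 (-0.60), Hibch (-0.57), Pccb (-0.55), Auh (-0.51) and Hibadh (-0.46) act further down the same paths and fell too. The 1 that did not pass was Bcat2, the transaminase that opens the pathway (8.15, 8.62 and 8.92 in injured PCA and 8.84, 9.01 and 8.73 in controls, -0.30 ± 0.16, adjusted p = 0.213). The list's mean was 0.90, 0.59 and 0.42 below the controls on injured arrays 1 to 3. Between 13 and 16 members fell whichever PCA array was left out, 12 without the high-thyroid arrays and 10 with both PCA groups fitted alone. With the replicate number as a block in the PCA arrays alone, 3 fell.

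Mitochondrial upkeep fell in part. Among genes of fusion, fission and mitophagy 8 of 10 fell and 1 rose (median -0.54). Mfn1, a mitofusin that joins outer membranes, had 8.50, 8.74 and 8.97 in injured PCA and 9.66, 9.48 and 9.55 in controls (-0.83 ± 0.11, adjusted p = 0.000612). Bnip3, a receptor that marks mitochondria for removal, had 10.61, 10.86 and 11.27 in injured PCA and 11.82, 11.80 and 11.79 in controls (-0.89 ± 0.15, adjusted p = 0.00178). Its close relative Bnip3l moved the other way, with 11.70, 11.69 and 11.73 in injured PCA and 11.48, 11.47 and 11.23 in controls (0.31 ± 0.07, adjusted p = 0.0105). None of these groups overlapped. Pink1 (-0.89), Mfn2 (-0.70), Fundc2 (-0.67), Fundc1 (-0.41), the fission enzyme Dnm1l (-0.36) and the inner-membrane fusion enzyme Opa1 (-0.27) fell, and no single array left out moved the count of falls by over 1.5 times, though 5 fell without the high-thyroid arrays. The rise of Bnip3l was lost with both PCA groups fitted alone. Of 19 genes for import and protein quality control, 6 fell and 1 rose (median -0.12): the import channel parts Timm17a (-0.70), Timm44 (-0.42) and Timm23 (-0.39), the matrix chaperone Hspa9 (-0.62), the protease partner Clpx (-0.60) and the crista organiser Immt (-0.56) were lower, and the outer-membrane receptor Tomm22 was higher (0.24). The rise was lost without injured array 2, injured array 3 or any 1 control, without the high-thyroid arrays, and with both PCA groups fitted alone. Cholesterol synthesis and uptake held 0 of 14 genes that passed limma's test (unadjusted p under 0.05 in 1 higher and 1 lower; median 0.15). Squalene epoxidase (Sqle), a slow step of that path, had 7.91, 8.93 and 8.56 in injured PCA and 8.82, 7.61 and 7.60 in controls, highest in each group on the array with the highest thyroid score.

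Among circadian clock genes, 7 of 14 fell and 0 rose (median -0.26; unadjusted p under 0.05 in 7 lower and 1 higher). Nr1d1 (Rev-erb alpha), a repressor in the clock loop, had 9.67, 9.10 and 9.55 in injured PCA and 10.12, 10.68 and 10.20 in controls (-0.89 ± 0.18, adjusted p = 0.00507). Per3 had 8.39, 7.98 and 7.68 in injured PCA and 8.52, 9.10 and 8.95 in controls (-0.84 ± 0.20, adjusted p = 0.0117). Per1 had 9.27, 8.23 and 7.91 in injured PCA and 9.63, 9.16 and 9.37 in controls (-0.92 ± 0.29, adjusted p = 0.0411). Injured array 1 was the highest of its group in all 3 genes, and in Per1 it reached the controls. The output factors Dbp (-0.45) and Tef (-0.41), the activator Npas2 (-0.45) and the repressor Cry2 (-0.28) fell, while the activator Bmal1 did not pass (8.71, 9.11 and 9.13 in injured PCA and 9.24, 8.86 and 9.20 in controls, -0.12 ± 0.16, adjusted p = 0.656). The labels give no time of day for the tissue. The falls numbered 3 without injured array 1, 4 without injured array 2, 3 without injured array 3, 3 without control array 2, 2 without control array 3, 4 without the high-thyroid arrays and 2 with both PCA groups fitted alone.

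Cytosolic ribosomal protein genes rose together by small amounts: 29 of 35 rose and 0 fell (median 0.35; unadjusted p under 0.05 in 30 higher and 0 lower). Rpl18 had 11.63, 11.57 and 11.35 in injured PCA and 10.47, 10.93 and 10.65 in controls (0.83 ± 0.11, 1.78-fold, adjusted p = 0.000595). Rpl10a had 11.51, 11.41 and 11.61 in injured PCA and 10.62, 11.03 and 10.67 in controls (0.74 ± 0.10, adjusted p = 0.000836). Rps15 had 11.59, 11.52 and 11.58 in injured PCA and 10.68, 10.85 and 11.07 in controls (0.70 ± 0.09, adjusted p = 0.000507). These 3 genes showed the 3 largest differences of the list and none had overlapping groups. The list's mean was 0.40, 0.31 and 0.37 above the control mean on injured arrays 1 to 3, so injured array 3 was no milder here. Rpl3 (0.47), the first listed, rose, and Rpl4 (0.12, adjusted p = 0.206) did not pass. Ribosomal protein genes share sequence with processed copies elsewhere in the genome, and the probe sets are uncertain individually. Between 20 and 25 members rose whichever array was left out, 20 without the high-thyroid arrays, and 17 with both PCA groups fitted alone.

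The rest of the translation machinery moved less. Of 18 genes for building ribosomes 4 rose and 0 fell (median 0.17; unadjusted p under 0.05 in 7 higher and 0 lower), led by the nucleolar proteins Nolc1 (0.48) and Npm1 (0.46). Of 25 translation factors 6 rose and 3 fell (median 0.08). Eef1b2 (0.48) and Eef1g (0.44), exchange factors that recharge the elongation factor, rose, whereas Eif4a2, the initiation helicase abundant in muscle and nerve, fell (10.53, 10.78 and 10.74 in injured PCA and 11.23, 11.11 and 11.21 in controls, -0.50 ± 0.08, adjusted p = 0.00151). The other falls were the stress kinase gene Eif2ak3 (-0.45) and Eif5 (-0.24). Of 19 aminoacyl-tRNA synthetases 2 rose (10.5%), Wars1 (0.42) and Gars1 (0.41), and 1 fell (5.26%), Lars1 (-0.38). Of 20 cytosolic chaperones 2 rose (10.0%), Dnajb1 (0.40) and Hsp90aa1 (0.38), and 0 fell (unadjusted p under 0.05 in 3 higher and 1 lower). The shares of both lists were under the 13.3% and 12.5% of all genes. Of 28 genes for folding and secretion in the endoplasmic reticulum 4 fell (14.3%, near the 12.5% of all genes) and 0 rose. Their median was 0.04, with an unadjusted p under 0.05 in 4 lower and 0 higher. Xbp1, the factor that drives that machinery, was 1 of the falls (11.99, 12.02 and 12.01 in injured PCA and 12.49, 12.42 and 12.57 in controls, -0.49 ± 0.08, adjusted p = 0.00161). The chaperone Hspa5 had 12.04, 12.70 and 12.16 in injured PCA and 12.59, 11.95 and 12.06 in controls, and the list's mean was likewise highest in each group on the array with the highest thyroid score (10.52, 10.78 and 10.63 in injured PCA and 10.87, 10.51 and 10.66 in controls). Counts here moved with single arrays: ribosome building had 2 rises without injured array 3 or control array 3. Translation factors had 3 rises without injured array 1, control array 1 or control array 3. The endoplasmic reticulum list had 1 fall without any of those same 3 arrays, chaperones had 1 rise without injured array 1 or control array 3, and Lars1 was lost without either of that last pair. Without the high-thyroid arrays the ribosome-building rises were 2, translation falls 1, synthetase rises 1 and falls 0, and chaperone rises 1. With both PCA groups fitted alone the rises were 2 for ribosome building, 3 for translation factors and 1 for chaperones, and 1 gene of the endoplasmic reticulum list fell.

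Most genes of both cell division lists rose. Of 27 replication genes 17 rose and 0 fell (median 0.45; unadjusted p under 0.05 in 21 higher and 0 lower). Of 23 genes of the spindle and mitotic exit 19 rose and 0 fell (median 0.98; unadjusted p under 0.05 in 21 higher and 0 lower). The lists' means were 0.59, 0.43 and 0.55 above the controls for replication and 1.03, 0.77 and 1.00 above them for the spindle on injured arrays 1 to 3. Promoters of many spindle genes are known to hold an element called CHR together with a CCAAT box. The CHR is known to repress them in resting cells, as E2F sites do for many replication genes. Promoter sequence is therefore shown for 4 genes that rose and whose promoters hold the motifs named for their list. It runs from 250 bases before to 50 after the start, read from RefSeq on GRCr8, 5′ to 3′ on the gene's strand. The motifs were chosen with the lists' results known. They were searched on both strands as TTTGAA for CHR, CCAAT for the CCAAT box, and TTTCCCGC, TTTCGCGC, TTTGCCGC and TTTGGCGC for E2F. Capitals mark the CHR and CCAAT letters, on either strand, in the first pair (Plk1 at chr1:186147408-186147707, plus strand; Kif23 at chr8:71320535-71320834, minus strand) and E2F letters alone in the second pair (Mcm5 at chr19:13488563-13488862, plus strand; Mcm6 at chr13:42404303-42404602, minus strand).
Plk1: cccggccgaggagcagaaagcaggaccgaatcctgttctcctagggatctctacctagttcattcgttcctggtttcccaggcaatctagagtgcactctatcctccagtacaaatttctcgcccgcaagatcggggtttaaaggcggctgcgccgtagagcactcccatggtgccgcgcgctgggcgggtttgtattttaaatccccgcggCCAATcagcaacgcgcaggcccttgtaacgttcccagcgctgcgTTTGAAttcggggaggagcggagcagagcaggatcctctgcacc
Kif23: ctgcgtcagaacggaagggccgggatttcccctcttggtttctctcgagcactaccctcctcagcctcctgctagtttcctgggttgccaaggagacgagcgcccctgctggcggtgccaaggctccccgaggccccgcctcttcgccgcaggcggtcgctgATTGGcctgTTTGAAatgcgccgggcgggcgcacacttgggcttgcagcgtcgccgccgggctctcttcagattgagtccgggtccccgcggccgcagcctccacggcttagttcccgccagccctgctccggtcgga
Mcm5: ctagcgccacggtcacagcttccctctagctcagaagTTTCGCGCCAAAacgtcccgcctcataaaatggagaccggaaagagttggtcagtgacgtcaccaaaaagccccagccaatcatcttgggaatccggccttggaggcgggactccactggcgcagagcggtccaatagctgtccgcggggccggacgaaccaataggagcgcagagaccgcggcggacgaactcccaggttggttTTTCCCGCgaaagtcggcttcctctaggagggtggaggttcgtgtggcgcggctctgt
Mcm6: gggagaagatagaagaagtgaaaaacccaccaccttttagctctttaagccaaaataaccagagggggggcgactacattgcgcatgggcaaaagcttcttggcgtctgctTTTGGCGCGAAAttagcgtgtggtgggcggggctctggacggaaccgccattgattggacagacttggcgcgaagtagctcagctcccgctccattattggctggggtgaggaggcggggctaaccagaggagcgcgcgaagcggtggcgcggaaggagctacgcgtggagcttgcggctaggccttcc
Plk1 and Kif23 each held 1 CHR and 1 CCAAT box. Mcm5 held 3 E2F matches and Mcm6 held 2, where overlapping matches of opposite strand count separately. These 4 genes are examples that hold the motifs, so their matches do not show how common the motifs are. Among the spindle genes with a RefSeq promoter, 12 of 19 (63.2%) held the CHR letters, against 4962 of 27457 promoters in all (18.1%) and 2 of 25 replication genes (8%). The CCAAT box was found in 12 of 19 spindle genes (63.2%), 16 of 25 replication genes (64%) and 37.7% of all promoters. E2F letters were found in 13 of 25 replication genes (52%), 0 of 19 spindle genes and 618 of all promoters (2.25%). A match describes these letters in this window and shows no bound factor.

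Plk1, a kinase that drives entry into mitosis, had 8.42, 8.10 and 8.38 in injured PCA and 6.54, 7.18 and 6.53 in controls (1.55 ± 0.18, adjusted p = 0.000317). Kif23, a motor of the dividing cell's midbody, had 7.64, 7.34 and 7.79 in injured PCA and 6.18, 6.46 and 6.27 in controls (1.29 ± 0.15, adjusted p = 0.000394). Ndc80, which fastens chromosomes to the spindle, had 6.78, 6.53 and 6.80 in injured PCA and 5.08, 5.35 and 5.44 in controls (1.41 ± 0.18, adjusted p = 0.000479). All 3 were at least 1 unit higher on the mean with no overlap, and injured array 2 was the lowest of its group. In the AC, Kif23 differed by -0.03 ± 0.15, and the difference between the muscles, 1.32 ± 0.21, passed (adjusted p = 0.0458). The cyclin Ccnb1 (1.39) and the cytokinesis regulators Ect2 (1.25) and Prc1 (1.23) rose by over 1 unit too. Of the replication list, Rrm2, the inducible subunit of the enzyme that makes deoxynucleotides, had 8.62, 8.23 and 8.77 in injured PCA and 5.90, 6.86 and 6.32 in controls (2.18 ± 0.22, 4.53-fold, adjusted p = 0.000238). Mcm5 had 7.52, 6.99 and 7.40 in injured PCA and 5.95, 6.58 and 6.16 in controls (1.07 ± 0.17, adjusted p = 0.00159). Mcm6, with Mcm5 a part of the helicase that opens the double helix, had 7.70, 7.36 and 7.55 in injured PCA and 6.63, 6.61 and 6.45 in controls (0.97 ± 0.11, adjusted p = 0.000306). No groups overlapped in these 3 genes. Prim1 (0.81), Cdc6 (0.80), Gins1 (0.74) and Mcm2 (0.67) also rose. No array left out moved either count by over 1.5 times.

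Strand-break repair and checkpoint genes rose in 6 of 15 cases and fell in 0 (median 0.28; unadjusted p under 0.05 in 8 higher and 0 lower). Bard1, the partner of Brca1, had 7.28, 6.98 and 7.09 in injured PCA and 6.31, 6.21 and 6.37 in controls (0.82 ± 0.09, adjusted p = 0.000317). Brca1 had 6.22, 6.26 and 6.26 in injured PCA and 5.58, 5.75 and 5.67 in controls (0.58 ± 0.08, adjusted p = 0.00068). Neither overlapped. Fancd2 (0.71), Chek2 (0.64), Fanca (0.43) and Rad54l (0.28) rose, and Brca2 did not pass (0.25 ± 0.13, adjusted p = 0.197). Of 15 genes known as targets of p53, 5 rose and 1 fell (median 0.17). Plk3, a stress kinase, had 8.79, 8.72 and 8.85 in injured PCA and 6.51, 7.83 and 6.96 in controls (1.69 ± 0.28, adjusted p = 0.00178), with control array 2 nearest the injured arrays. Perp, also a desmosome protein of squamous epithelium, had 11.99, 12.19 and 12.27 in injured PCA and 11.22, 11.74 and 10.95 in controls (0.85 ± 0.18, adjusted p = 0.00637), and its order over the 6 arrays was that of the squamous score. Plk2 (0.71), Phlda3 (0.52, with the array order of Perp) and Pmaip1 (0.46) rose, while the p53 inhibitor Mdm2 did not pass (0.12 ± 0.08, adjusted p = 0.319). The fall was Ccng1 (cyclin G1), abundant in muscle, with 11.22, 11.36 and 11.89 in injured PCA and 12.15, 12.18 and 12.19 in controls (-0.68 ± 0.15, adjusted p = 0.00662). Without injured array 3, 2 genes of the p53 list fell, and without the high-thyroid arrays 3 rose and 0 fell.

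Of the immune lists, genes of phagocytes had the highest median. Of 18 genes for Fc receptors, their adaptors and the phagocyte oxidase 16 rose and 0 fell (median 1.10; unadjusted p under 0.05 in 16 higher and 0 lower), and the list's mean was 1.57, 0.91 and 0.88 above the controls on injured arrays 1 to 3. The macrophage score moved beside it, as given above, with injured array 1 the highest of the 6 arrays and control array 1 the lowest. Cybb, the membrane core of the oxidase, had 11.96, 11.51 and 11.34 in injured PCA and 9.16, 9.88 and 9.28 in controls (2.16 ± 0.23, 4.48-fold, adjusted p = 0.000288). Tyrobp (DAP12), an adaptor for many activating receptors, had 11.45, 10.67 and 10.54 in injured PCA and 8.38, 9.06 and 8.81 in controls (2.14 ± 0.25, adjusted p = 0.000394). Fcgr1a, the high-affinity receptor for antibody and itself one of the macrophage markers, had 9.65, 8.69 and 8.79 in injured PCA and 7.21, 7.73 and 7.21 in controls (1.66 ± 0.24, adjusted p = 0.00104). All 3 were highest on injured array 1, and the lowest injured array lay 0.96 above the highest control in Fcgr1a and further in the others. The inhibitory receptor Fcgr2b (1.64) rose together with the activating signalling genes Lcp2 (1.35), Btk (1.31), Vav1 (1.20) and Syk (1.12) and the restraining phosphatases Inpp5d (1.01) and Ptpn6 (0.66). Fcgr3a was one of the 2 that did not pass (6.44, 5.76 and 5.55 in injured PCA and 5.63, 5.64 and 5.63 in controls, 0.28 ± 0.20, adjusted p = 0.347). No array left out moved this count by over 1.5 times.

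Of 18 genes for pattern recognition and the inflammasome, 12 rose and 0 fell (median 0.75; unadjusted p under 0.05 in 13 higher and 0 lower). Clec4e (Mincle), a receptor for microbial glycolipids and dying cells, had 9.22, 7.17 and 8.17 in injured PCA and 5.70, 5.70 and 5.63 in controls (2.51 ± 0.49, 5.7-fold, adjusted p = 0.00394). Clec7a (Dectin-1) had 10.80, 10.01 and 9.99 in injured PCA and 8.12, 8.24 and 8.28 in controls (2.05 ± 0.28, adjusted p = 0.000697). Tlr7 had 9.90, 8.98 and 8.96 in injured PCA and 7.23, 8.33 and 7.68 in controls (1.53 ± 0.30, adjusted p = 0.00419). The injured arrays spread over 2.05 in Clec4e and its controls over 0.07, and injured array 1 was the highest in all 3 genes. Tlr2 (1.52), Cd14 (1.03), the cytokine Il18 (0.93), the adaptors Myd88 (0.86) and Pycard (0.78) and the protease Casp1 (0.82) rose, as did Irak3, which damps the same receptors (0.60). Tlr4, the endotoxin receptor, did not pass (0.36 ± 0.15, adjusted p = 0.0963), and Tlr3, which senses viral RNA, was at -0.14 ± 0.09 (adjusted p = 0.317).

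Of 25 interferon-stimulated genes, many of them switched on by viral infection, 4 rose and 0 fell (median 0.30; unadjusted p under 0.05 in 8 higher and 0 lower). Ifitm1 had 10.41, 9.86 and 10.10 in injured PCA and 8.50, 8.97 and 8.84 in controls (1.35 ± 0.19, adjusted p = 0.000801). Irf8, a factor of the myeloid lineage, had 9.81, 9.33 and 9.09 in injured PCA and 8.53, 8.67 and 8.35 in controls (0.89 ± 0.18, adjusted p = 0.00532). Irf1 (0.46) and Ifitm3 (0.43) completed the 4, and Stat2, the first measured on the list, did not pass (0.27 ± 0.15, adjusted p = 0.202). Irf7, chosen after its values were seen, had 8.28, 8.07 and 8.67 in injured PCA and 7.77, 8.87 and 7.48 in controls, where control array 2 was the highest of all 6. The list's mean on that control was 0.52 above the mean of the controls, and 0.14 and 0.38 below it on the other 2 controls. Without control array 2, 13 members rose. Of 14 genes for presenting peptides on MHC class I 5 rose and 0 fell (median 0.06; unadjusted p under 0.05 in 6 higher and 1 lower). These were the immunoproteasome subunits Psmb9 (9.54, 9.24 and 9.25 in injured PCA and 8.80, 8.88 and 8.72 in controls, 0.54 ± 0.12), Psmb8 (0.46) and Psmb10 (0.24), the peptide transporter Tap1 (0.40) and Tapbp (0.28, in the array order of the squamous score), while the light chain B2m did not pass (0.24 ± 0.09, adjusted p = 0.0747). The 5 rises were 1 without injured array 1, 3 without injured array 2 or 3, 1 without control array 1, 2 without control array 3, 1 without the high-thyroid arrays and 2 with both PCA groups fitted alone. Genes of the class I locus share sequence and are uncertain individually.

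Macrophages that clear debris take up and export lipid, and of 20 genes for this 13 rose and 3 fell (median 0.82). Trem2, a lipid receptor of such macrophages, had 9.74, 9.60 and 9.13 in injured PCA and 7.03, 7.19 and 6.88 in controls (2.46 ± 0.28, 5.49-fold, adjusted p = 0.000317). Lgals3 (galectin 3) had 12.06, 11.57 and 11.66 in injured PCA and 9.19, 10.02 and 9.54 in controls (2.18 ± 0.19, adjusted p = 0.000184). Apoe had 12.33, 12.42 and 12.13 in injured PCA and 10.78, 11.35 and 11.06 in controls (1.23 ± 0.15, adjusted p = 0.000409). In none did the groups overlap. Olr1 (1.83) and Pla2g7 (1.69), which handle oxidised lipid, the cholesterol exporters Abca1 (0.83) and Abcg1 (0.81), and the lysosomal genes Lipa (1.01), Npc2 (0.85), Ctsb (0.72) and Npc1 (0.41) rose, as did the lipid droplet coat Plin2 (0.89). Fabp5, which squamous epithelium also makes, had 9.22, 8.98 and 9.29 in injured PCA and 6.92, 8.04 and 7.08 in controls (1.82 ± 0.26). The falls were the lipase Lpl (-0.37), the fatty acid carrier Cd36 (-0.44) and Fabp4 (-0.59), all of which fat or muscle capillaries also make. The 13 rises were the same number without any 1 PCA array; 1 gene fell without the high-thyroid arrays.

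Of 21 genes for macrophage states 10 rose and 1 fell (median 0.56). Folr2, of tissue-resident macrophages, had 11.33, 10.95 and 10.95 in injured PCA and 8.58, 9.79 and 9.25 in controls (1.87 ± 0.24, adjusted p = 0.000503). Ccr2, the receptor by which blood monocytes enter tissue, had 9.70, 9.20 and 9.34 in injured PCA and 7.43, 8.23 and 7.59 in controls (1.66 ± 0.20, adjusted p = 0.000409). Both rose by over 1.5 units with no overlap. Cx3cr1 (1.52), Csf1r (1.44), Siglec1 (1.27, in the array order of the squamous score), the mannose receptor Mrc1 (1.25), the growth factor Csf1 (0.55) and the interleukin 10 receptor Il10ra (0.78) rose, whereas the scavenger receptor Cd163 did not pass (8.92, 8.75 and 9.17 in injured PCA and 8.10, 9.24 and 8.85 in controls, 0.22 ± 0.25). The fall was arginase 1 (Arg1), known as a mark of repair macrophages in mice, with 7.37, 7.01 and 7.86 in injured PCA and 8.18, 8.11 and 8.27 in controls (-0.77 ± 0.22, adjusted p = 0.023). It was lost without injured array 1, injured array 2, control array 1, control array 3 or the high-thyroid arrays. The inflammatory genes Nos2 (0.83 ± 0.42, adjusted p = 0.185), Il6 (0.81 ± 0.37, adjusted p = 0.134) and Tnf (0.31 ± 0.16, adjusted p = 0.177) did not pass.

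Haem and iron genes held 5 rises and 3 falls among 20 members (median 0.13), and some of the differences were large. Hmox1, the haem oxygenase that frees iron from haem, had 9.86, 8.91 and 8.89 in injured PCA and 5.99, 6.93 and 6.41 in controls (2.78 ± 0.28, 6.85-fold, adjusted p = 0.000218). Slc11a1, the iron pump of the phagosome, had 9.98, 8.70 and 8.51 in injured PCA and 6.60, 6.61 and 6.39 in controls (2.53 ± 0.37, adjusted p = 0.00104). Ftl1, the light chain of the iron store ferritin, had 13.14, 13.08 and 12.96 in injured PCA and 12.04, 12.02 and 11.83 in controls (1.10 ± 0.10, adjusted p = 0.00019). All injured arrays were above all controls in these genes, by 0.92 in Ftl1. The iron exporter Slc40a1 (0.48) and Steap3 (0.52) rose, whereas the transferrin receptor Tfrc (-0.76), transferrin (Tf, -0.62) and myoglobin, the fibre's oxygen store, fell (13.46, 13.37 and 13.42 in injured PCA and 13.70, 13.66 and 13.74 in controls, -0.28 ± 0.06). The heavy ferritin chain Fth1 did not pass (0.15 ± 0.13, adjusted p = 0.448), and 0 of 6 red cell markers did. Without the high-thyroid arrays 0 fell, and no single array moved these counts by over 1.5 times.

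Redox defence genes rose in 9 and fell in 2 of 26 cases (median 0.18). Nqo1, a quinone reductase, had 9.36, 9.79 and 10.55 in injured PCA and 9.10, 8.87 and 8.74 in controls (1.00 ± 0.28, adjusted p = 0.0215). Slc7a11, the cystine carrier that feeds glutathione, had 8.48, 7.54 and 8.16 in injured PCA and 6.70, 7.31 and 7.02 in controls (1.05 ± 0.23, adjusted p = 0.00691). The glutathione peroxidases Gpx7 (0.80), Gpx8 (0.73) and Gpx1 (0.63) rose. Nqo1 was highest on injured array 3, Slc7a11 on injured array 1. The falls were the mitochondrial enzymes Sod2 (10.48, 10.25 and 10.72 in injured PCA and 11.11, 11.10 and 11.09 in controls, -0.62 ± 0.11, adjusted p = 0.00238) and Prdx3 (9.76, 9.91 and 10.32 in injured PCA and 10.60, 10.67 and 10.62 in controls, -0.63 ± 0.12, adjusted p = 0.00417), which moved with the mitochondrial genes above. The 9 rises were 5 without injured array 3, 5 without control array 2, 4 without control array 3 and 3 without the high-thyroid arrays.

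Immediate early and stress-induced transcription factors rose in 14 and fell in 3 of 25 cases (median 0.37). Atf3, a factor that many stresses induce, had 8.77, 8.65 and 8.78 in injured PCA and 7.43, 7.49 and 7.51 in controls (1.26 ± 0.12, adjusted p = 0.000207). Junb had 9.43, 9.27 and 9.32 in injured PCA and 8.09, 8.48 and 8.21 in controls (1.08 ± 0.13, adjusted p = 0.000394). Fos had 7.87, 8.42 and 7.71 in injured PCA and 6.80, 7.27 and 7.17 in controls (0.92 ± 0.23, adjusted p = 0.0122). The injured arrays spread over 0.13 in Atf3 and over 0.71 in Fos, with no overlap in either. Klf4, which squamous epithelium also makes, rose by 0.96 and Egr3 by 0.66. The orphan receptors Nr4a1 (8.31, 8.31 and 8.48 in injured PCA and 9.03, 9.55 and 8.95 in controls, -0.81 ± 0.14, adjusted p = 0.00248) and Nr4a3 (-0.60), which contraction and adrenergic signals induce in muscle, fell, as did Maff (-0.32). Rises numbered 9 without injured array 1, 9 without control array 3, 7 without the high-thyroid arrays and 9 with both PCA groups fitted alone. Of 22 hypoxia and vessel genes 3 rose (13.6%, near the 13.3% of all genes) and 1 fell (4.55%), with a median of 0.01. Vegfd, a growth factor for lymph vessels, had 8.76, 8.14 and 8.07 in injured PCA and 6.12, 6.66 and 6.54 in controls (1.88 ± 0.23, adjusted p = 0.00044). Vegfb, the member of that family tied to oxidative muscle, had 10.45, 10.69 and 10.75 in injured PCA and 11.40, 11.45 and 11.38 in controls (-0.78 ± 0.09, adjusted p = 0.000356). Vegfa, the main signal for new capillaries, did not pass (9.42, 11.04 and 9.62 in injured PCA and 11.63, 10.81 and 10.87 in controls, -1.08 ± 0.37, adjusted p = 0.0537), and in each group was highest on the array with the highest thyroid score. Angptl4 (0.83) and the apelin receptor Aplnr (0.48) were the other rises. These rises numbered 1 without injured array 1, 5 without injured array 3 and 1 without control array 3, and the fall became 2 without injured array 1, 3 without injured array 2, 2 without injured array 3, 2 without control array 1 and 3 without the high-thyroid arrays.

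Actin remodelling, the engine of cell crawling and of engulfing, rose in 23 of 26 cases and fell in 0 (median 0.61; unadjusted p under 0.05 in 24 higher and 0 lower). The list's mean was 0.83, 0.56 and 0.60 above the controls on injured arrays 1 to 3. Cotl1, which binds actin in leukocytes, had 9.46, 8.76 and 9.04 in injured PCA and 7.16, 7.61 and 7.10 in controls (1.80 ± 0.21, adjusted p = 0.000394). Arpc4, a subunit of the Arp2/3 complex that branches filaments, was chosen after its values were seen for its narrow spread, and had 10.86, 10.80 and 10.89 in injured PCA and 10.02, 10.06 and 9.90 in controls (0.86 ± 0.08, adjusted p = 0.000184). Groups did not overlap in either, and the injured arrays spread over 0.09 in Arpc4 and over 0.70 in Cotl1. The leukocyte genes Plek (1.26), Coro1a (1.02) and Lcp1 (0.96) and the capping protein Capg (1.12) rose with Actr3, a core of the same complex (0.96), and with the cytoplasmic actins Actg1 (0.60) and Actb (0.34), which nearly all cells make. The macrophage score given above moved beside this list. No array left out moved the count by over 1.5 times.

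Of 22 tubulins and microtubule regulators 10 rose (45.5%) and 2 fell (9.09%, under the 12.5% of all genes), with a median of 0.32. Tubb6, a beta tubulin known to be induced in regenerating and dystrophic muscle of mice, had 9.65, 9.34 and 9.90 in injured PCA and 7.22, 7.71 and 7.92 in controls (2.01 ± 0.19, 4.04-fold, adjusted p = 0.000207). Tuba1a had 11.49, 11.03 and 11.35 in injured PCA and 9.90, 10.17 and 9.94 in controls (1.29 ± 0.13, adjusted p = 0.000229). Tubb5 had 11.73, 11.53 and 11.47 in injured PCA and 10.09, 10.61 and 10.29 in controls (1.25 ± 0.13, adjusted p = 0.000288). Tubb6 was highest on injured array 3. Tubb2b (1.02), Tubb3 (0.97), Tuba1c (0.92) and Stmn1, which frees tubulin dimers (0.89), rose as well. The 2 falls were alpha tubulins of adult muscle. Tuba8 had 7.11, 7.51 and 8.93 in injured PCA and 8.94, 9.08 and 9.14 in controls (-1.20 ± 0.37, adjusted p = 0.0333). Tuba4a had 10.61, 11.09 and 11.34 in injured PCA and 11.49, 11.69 and 11.62 in controls (-0.59 ± 0.16, adjusted p = 0.0227). On injured array 3 Tuba8 lay 0.01 under the lowest control. Both falls were lost without injured array 1, control array 2, control array 3 or the high-thyroid arrays and with both PCA groups fitted alone, and 1 was left without injured array 2 or control array 1. Tubulin genes share much of their coding sequence, so their probe sets are uncertain individually.

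Annexins and S100 proteins bind calcium at membranes, and 10 of 21 rose and 2 fell (median 0.45). Anxa2, which helps to reseal torn membranes, had 12.03, 11.78 and 12.03 in injured PCA and 10.97, 11.13 and 11.02 in controls (0.91 ± 0.09, adjusted p = 0.000207). In the AC it differed by -0.01 ± 0.09, and the difference between the muscles, 0.92 ± 0.12, passed (adjusted p = 0.027). Anxa1, which squamous epithelium and leukocytes make, had 10.92, 10.69 and 11.49 in injured PCA and 9.22, 9.71 and 9.57 in controls (1.53 ± 0.24, adjusted p = 0.00123). Anxa8, an epithelial annexin, had 8.22, 8.92 and 9.28 in injured PCA and 6.05, 7.69 and 6.62 in controls (2.02 ± 0.39, adjusted p = 0.00366), again with control array 2 closest to the injured arrays as in the squamous score. S100a11 (1.13), S100a4 (1.05) and S100a10, the partner of Anxa2 (0.73), rose. The falls were S100a1, which aids calcium release in muscle (10.36, 11.06 and 10.79 in injured PCA and 11.70, 11.52 and 11.58 in controls, -0.86 ± 0.15, adjusted p = 0.00256), and S100b, of Schwann cells, cartilage and fat (7.20, 7.57 and 7.65 in injured PCA and 8.42, 8.30 and 8.66 in controls, -0.99 ± 0.15, adjusted p = 0.00128).

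Genes for modifying, trimming or crosslinking collagen rose in 15 of 21 cases and fell in 1 (median 0.65). The fibroblast score moved beside them, with the values given above. P4ha3, a prolyl hydroxylase, had 10.05, 8.96 and 9.19 in injured PCA and 6.86, 7.34 and 7.15 in controls (2.28 ± 0.35, 4.87-fold, adjusted p = 0.00124). Its relative P4ha2 did not pass (8.68, 8.69 and 8.51 in injured PCA and 8.78, 8.53 and 8.89 in controls, -0.11 ± 0.10, adjusted p = 0.475). Lox, which crosslinks collagen, had 11.82, 11.13 and 11.37 in injured PCA and 10.01, 10.33 and 10.41 in controls (1.19 ± 0.23, adjusted p = 0.00401). Loxl1, its relative for elastin, had 11.42, 11.31 and 11.17 in injured PCA and 9.96, 10.48 and 10.30 in controls (1.05 ± 0.14, adjusted p = 0.000658). In P4ha3, Lox and Loxl1 no injured array overlapped the controls and injured array 1 was the highest. Loxl2 (1.15), the collagen chaperone Serpinh1 (0.87), Crtap (0.87) and Pcolce, which speeds removal of the propeptide (0.73), rose, while Loxl3 fell (8.17, 7.99 and 8.04 in injured PCA and 8.46, 8.47 and 8.51 in controls, -0.41 ± 0.11, adjusted p = 0.0153). The rises numbered 9 without injured array 1 and 7 without the high-thyroid arrays, and the fall was lost without control array 3 or without the high-thyroid arrays.

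Of 22 proteins of the provisional matrix 10 rose and 1 fell (median 0.40). Vcan (versican), a proteoglycan of loose new matrix, had 10.84, 9.70 and 10.19 in injured PCA and 7.81, 8.62 and 8.51 in controls (1.93 ± 0.29, 3.81-fold, adjusted p = 0.00114). Postn (periostin) had 12.65, 12.36 and 12.19 in injured PCA and 10.02, 11.08 and 10.61 in controls (1.83 ± 0.30, adjusted p = 0.00176). Tgfbi, a matrix protein that TGF-beta induces, had 11.73, 11.07 and 11.34 in injured PCA and 9.15, 9.89 and 9.69 in controls (1.80 ± 0.25, adjusted p = 0.00081). In each of these genes control array 1 was the lowest of all arrays and injured array 1 the highest. Ccn4 (1.16), Ccn5 (1.15) and Fbln1 (0.86) rose. Fibronectin (Fn1) did not pass (0.25 ± 0.15, adjusted p = 0.256). Sparcl1, which vessels and muscle make, fell (-0.32), a call lost without injured array 1, injured array 3 or control array 1, and with both PCA groups fitted alone.

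Notch receptors and their partners rose in 6 of 17 cases and fell in 1 (median 0.14). Rbpj, the DNA-binding partner of Notch, had 9.35, 8.97 and 9.17 in injured PCA and 8.49, 8.70 and 8.76 in controls (0.51 ± 0.11, adjusted p = 0.00592). The receptors Notch3 (0.45) and Notch1 (0.39), the ligand Jag1 (0.38) and the targets or modifiers Nrarp (0.53) and Lfng (0.33) rose, while the target Hey1 fell (-0.37 ± 0.11, adjusted p = 0.0328). All of these were differences of under 0.6. Rises numbered 3 without injured array 1, 3 without control array 1, 2 without control array 3 and 1 without the high-thyroid arrays, and the fall was lost without injured array 2 or 3, control array 2 or 3, or the high-thyroid arrays. In the fit of both PCA groups alone 3 rose and 0 fell.

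Wnt signalling, which steers fibroblasts and muscle progenitors, held 7 rises and 5 falls among 27 genes (median 0.09). The secreted inhibitors went both ways. Sfrp4 had 10.25, 10.49 and 10.29 in injured PCA and 8.13, 10.01 and 9.07 in controls (1.27 ± 0.40, adjusted p = 0.0387). Sfrp1 had 9.76, 9.52 and 9.25 in injured PCA and 8.37, 8.75 and 8.43 in controls (0.99 ± 0.13, adjusted p = 0.000578). Wif1 had 7.06, 7.47 and 7.74 in injured PCA and 8.24, 8.46 and 8.88 in controls (-1.10 ± 0.19, adjusted p = 0.00224). The groups did not overlap in any of them, although control array 2 lay 0.24 below the lowest injured array for Sfrp4. Among ligands and enhancers, Wnt2b rose (7.26, 7.10 and 7.08 in injured PCA and 5.93, 6.22 and 6.34 in controls, 0.98 ± 0.14, adjusted p = 0.00076) and Rspo3 fell (6.04, 6.32 and 5.87 in injured PCA and 7.34, 6.99 and 7.47 in controls, -1.19 ± 0.18, adjusted p = 0.00115). Among receptors Fzd2 rose (0.90), and Fzd4 fell (-0.58). Rises numbered 4 without injured array 1, 4 without control array 3 and 4 without the high-thyroid arrays. With both PCA groups fitted alone 3 fell.

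BMP signalling, known to shape cartilage and to preserve muscle mass, fell in 8 and rose in 1 of 25 cases (median -0.10). Grem1, a secreted BMP antagonist, had 9.14, 8.96 and 8.73 in injured PCA and 10.36, 9.92 and 10.70 in controls (-1.38 ± 0.25, adjusted p = 0.00255). Bmp5, a ligand of cartilage and its sheath, had 7.04, 7.54 and 7.20 in injured PCA and 8.48, 8.24 and 8.43 in controls (-1.12 ± 0.15, adjusted p = 0.000697). Chrdl1, another antagonist, had 9.08, 9.23 and 9.15 in injured PCA and 9.94, 10.11 and 10.18 in controls (-0.92 ± 0.08, adjusted p = 0.000173). In Chrdl1 the injured arrays spread over 0.15 and injured array 3 was not milder than the others, and the groups did not overlap in any of these genes. The list's mean minus the control mean was -0.36, 0.00 and -0.26 on injured arrays 1 to 3. The chondrocyte score had another order, lower on all 3 injured arrays and lowest on injured array 3. Bmpr1b (-0.72), Bmp6 (-0.65) and Nog (-0.39) fell, and Fstl3, which binds activin and myostatin, rose (0.36). The falls numbered 5 without injured array 1, and the rises 3 without injured array 3.

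Of 22 receptors for hormones and growth factors 7 fell and 4 rose (median -0.01). Thra had 9.25, 9.41 and 9.43 in injured PCA and 9.88, 10.05 and 9.92 in controls (-0.59 ± 0.08, adjusted p = 0.00067). Thrb, with Thra a receptor for thyroid hormone, had 7.89, 8.39 and 8.53 in injured PCA and 9.07, 8.89 and 9.08 in controls (-0.74 ± 0.16, adjusted p = 0.00703). Rxrg, the retinoid X receptor of muscle, had 7.54, 7.51 and 8.63 in injured PCA and 8.81, 9.17 and 9.08 in controls (-1.13 ± 0.26, adjusted p = 0.00888). No groups overlapped. The receptors for mineralocorticoid (Nr3c2, -0.82), oestrogen (Esr1, -0.68) and glucocorticoid (Nr3c1, -0.25) fell. The growth factor receptors Pdgfrb (0.70), Erbb2 (0.50) and Egfr (0.44) rose. Falls numbered 4 without control array 3 and 4 without the high-thyroid arrays, and rises 2 without injured array 3 and 2 without the high-thyroid arrays. In the fit of both PCA groups alone 3 fell and 2 rose.

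A list of 30 microRNA loci had 0 measured members among the named probe sets. Factors that muscle is known to secrete went both ways, 5 of 21 up and 6 down (median 0.13). Ostn (osteocrin), a peptide of fast fibres, had 5.89, 5.84 and 5.94 in injured PCA and 7.08, 7.61 and 7.42 in controls (-1.48 ± 0.19, 2.79-fold lower, adjusted p = 0.000476). Fgf2 had 7.26, 7.51 and 7.92 in injured PCA and 8.40, 8.34 and 8.61 in controls (-0.89 ± 0.17, adjusted p = 0.00371). Fgf6, which muscle makes nearly alone, had 5.85, 5.95 and 5.95 in injured PCA and 6.59, 6.63 and 6.66 in controls (-0.71 ± 0.15, adjusted p = 0.0061). In Ostn and in Fgf6 the injured arrays spread over 0.10, and injured array 3 was as low as the rest. Il15 (-0.59), Fndc5, the precursor of irisin (-0.68), and Vegfb (given above) fell as well. Among the rises, Igf2 had 10.48, 10.80 and 11.23 in injured PCA and 9.52, 10.46 and 9.34 in controls (1.06 ± 0.28, adjusted p = 0.0167; its order over the 6 arrays was that of the squamous score), Metrnl had 9.11, 8.83 and 8.95 in injured PCA and 7.76, 8.28 and 7.78 in controls (1.02 ± 0.15, adjusted p = 0.00099), and Igf1, a growth factor of fibres and macrophages, had 12.22, 11.98 and 11.81 in injured PCA and 11.19, 11.62 and 11.39 in controls (0.60 ± 0.14, adjusted p = 0.00901). Nrg1, a signal between nerve and muscle, rose by 0.74. The rises numbered 3 without control array 3.

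**Figure D4:**
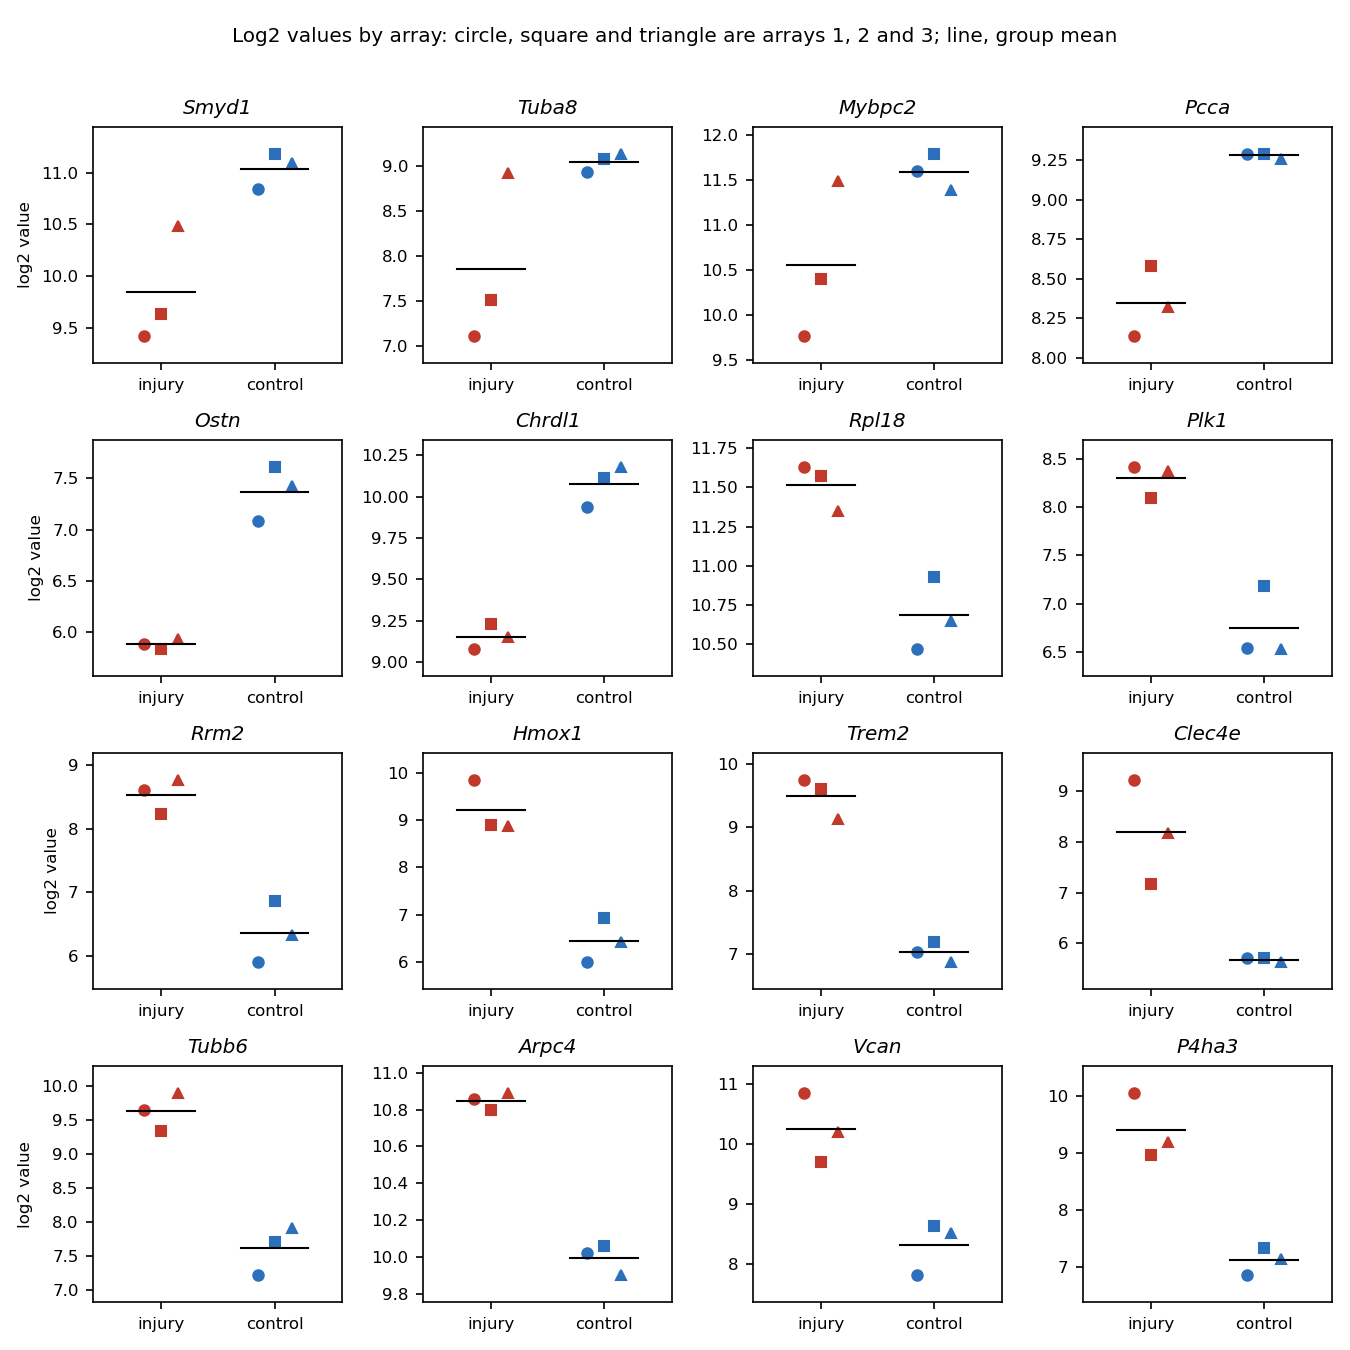
Log2 levels of 16 genes in injured (left of each panel) and control PCA (right); circle, square and triangle are arrays 1, 2 and 3, and the line is the group mean. Each panel has its own vertical axis. Mybpc2 (9.77, 10.40 and 11.49 in injured PCA) and Tuba8 (7.11, 7.51 and 8.93) show injured array 3 at the controls, whereas Ostn (5.89, 5.84 and 5.94) and Chrdl1 (9.08, 9.23 and 9.15) show all 3 injured arrays together below them.

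Beyond the 10 largest differences in each direction, the genes ranked 11 to 30 among named genes that passed with groups that did not overlap were of few kinds. Of the 20 that rose, most are known from stratified epithelium: the keratins Krt13 (3.54 ± 0.97) and Krt4 (3.08 ± 0.87), the envelope genes Sprr3 (3.38), Lce1f (2.78), Sbsn (3.04) and Dmkn (3.49), the lipoxygenase Alox12b (3.52), the desmosome protein Pkp1 (2.80), the serpins Serpinb2 (3.66) and Serpinb5 (2.78), the kallikreins Klk9 (2.86) and Klk10 (3.29), and Lgals7 (3.05). Krt13 had 12.48, 13.01 and 12.94 in injured PCA and 9.09, 12.13 and 6.58 in controls, so the controls spread over 5.55, with control array 2 0.35 below the lowest injured array. Serpina9 (3.21), Wfdc5 (3.10), Ly6g6c (2.82) and Aadacl2 (2.93) shared that order of the controls, with control array 2 the highest. Of the remaining 3, Lrrc15, a membrane protein of activated fibroblasts, had 10.54, 9.97 and 10.26 in injured PCA and 6.24, 7.33 and 6.60 in controls (3.53 ± 0.50, 11.6-fold, adjusted p = 0.000843). Tnn (tenascin N), a matrix protein, had 11.49, 10.58 and 10.87 in injured PCA and 7.06, 8.26 and 7.10 in controls (3.51 ± 0.72, adjusted p = 0.00511). Clec2dl1, a lectin gene, had 9.79, 8.55 and 9.06 in injured PCA and 5.68, 6.71 and 6.09 in controls (2.97 ± 0.35, adjusted p = 0.000409). Control array 2 was again the highest control in these 3 genes, and the lowest injured array lay further above it than in Krt13. In the AC their differences were 1.82 ± 0.50, 2.53 ± 0.72 and 0.83 ± 0.35, while those of the other 17 were below 0.

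Of the 20 genes ranked 11 to 30 among those that fell, several are cartilage genes: Col10a1 (-2.11), Acan (-1.90), Hapln1 (-1.88), Matn1 (-1.86), Ucma (-1.78) and Cnmd (-1.70). Acan (aggrecan), the main proteoglycan of cartilage, had 10.04, 10.02 and 9.43 in injured PCA and 11.86, 11.20 and 12.14 in controls (-1.90 ± 0.35, adjusted p = 0.0029). In fibres, Perm1, a regulator of oxidative capacity, had 6.81, 6.97 and 7.79 in injured PCA and 9.21, 9.19 and 9.24 in controls (-2.02 ± 0.23, adjusted p = 0.000317). Clcn1, the chloride channel that steadies the fibre's membrane, had 7.51, 7.93 and 8.73 in injured PCA and 9.59, 9.78 and 9.80 in controls (-1.67 ± 0.25, adjusted p = 0.00117). In both, injured array 3 was the nearest to the controls. Scn4b, a sodium channel subunit (7.14, 7.61 and 9.14 in injured PCA and 9.69, 9.94 and 9.67 in controls, -1.80 ± 0.38), Myl2, the slow light chain (-2.04), Myh2, the 2A heavy chain (-1.86), Pfkfb1 (-1.87) and the potassium channel Kcnma1 (-1.73) belong to the fibre too, while Pck1, one of the adipocyte markers (-2.04), and Aqp7, a glycerol channel of fat (-1.75), fell. All 20 of these genes had a difference below 0 in the AC, but only Perm1 (-1.47 ± 0.23), Pfkfb1 (-1.14 ± 0.25), Kcnma1 (-0.94 ± 0.20) and SPATA45 (-1.36 ± 0.15) passed there. Nearest to 0 in the AC was Acan (-0.11 ± 0.35, adjusted p = 0.901 in limma). For none of the 40 genes did the difference between the muscles pass in limma (adjusted p between 0.0698 and 0.685; unadjusted p under 0.05 in 19 with the PCA difference the higher and 14 with it the lower), against 22 of all genes (0.154%), 18 with the PCA difference the higher (0.126%) and 4 with it the lower (0.0279%). Without control array 2 it passed for 21 of the 40, so this 0 rests on that array.

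Genes were also set apart by where injured array 3 lay. Nearest to the mean of injured arrays 1 and 2 among genes that fell were Epha5 (6.26, 6.14 and 6.21 in injured PCA and 7.40, 7.60 and 8.10 in controls, -1.50 ± 0.19), Itga10, a collagen receptor of chondrocytes (-1.24), Acvr1c, a receptor abundant in fat (-1.22), Zbtb16, a factor that glucocorticoid induces (-1.23), Bpifb6 (-1.59) and Ostn. Among genes that rose they were Lrrc15, Evi2a (1.55), Ptgfrn (1.01), Csf3r, a receptor of granulocytes (1.81), Tmem86a (1.32) and the collagenase Mmp13 (9.30, 6.35 and 7.84 in injured PCA and 5.32, 6.45 and 5.40 in controls, 2.11 ± 0.58), whose injured arrays spread over 2.95. The 4 genes that fell at least 2-fold although injured array 3 lay inside the control range were Mybpc2, Mylk2, the kinase of fast myosin light chains (8.05, 9.04 and 10.08 in injured PCA and 10.06, 10.68 and 10.17 in controls, -1.25 ± 0.40, adjusted p = 0.0428), Tmod4, which caps thin filaments (10.29, 10.78 and 12.06 in injured PCA and 11.94, 12.18 and 12.04 in controls, -1.01 ± 0.34, adjusted p = 0.0485), and Cldn22 (-1.15). The only such gene that rose was Epyc, a small proteoglycan (7.91, 8.28 and 7.94 in injured PCA and 6.51, 7.94 and 6.20 in controls, 1.16 ± 0.35, adjusted p = 0.0317), where control array 2 was as high as injured array 3 and above injured array 1. Mybpc2, Mylk2 and Tmod4 are genes of the fibre, and the muscle fibre score, which counts Mybpc2 among its markers, on injured array 3 was 12.42, against 12.44 to 12.63 in the controls.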

How the data were processed

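RNA of 12 specimens from laryngeal muscle of rats was measured on whole-transcript arrays, 3 in each of 4 groups, from 100 ng of total RNA per the labels' protocols. The labels' molecule field names polyA RNA instead. The values are log2 expression levels from the deposited series matrix. The authors used RMA in Partek, per the submitters' processing notes; their background step and annotation were not given in the sources used here. Levels ran from 2.57 to 14.04 and PCA array medians from 7.11 to 7.16. Of 27342 probe sets, 15103 carried 1 gene symbol in the platform annotation, 317 several and 11922 none; 15067 were matched to RefSeq by gene ID and 0 symbols changed. The probe set with the highest mean over the 12 arrays stood for each of the 500 genes with several, which left 14329 genes.

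Group means of all 4 groups were fitted with limma 3.58.1 in R 4.3.3 (lmFit and eBayes), with PCA injury minus PCA control as the contrast and Benjamini-Hochberg adjustment over 14329 genes. Injury minus control in the PCA minus the same in the AC was tested in that fit. Python 3.11.15 with pandas 2.3.3, numpy 2.4.6 and matplotlib 3.10.9 did the rest. The gene lists, markers, motifs and the comparison itself were chosen with earlier results of these data known. Named genes were those ranked 11 to 30 by difference in each direction; from each list the first 2 measured, up to 6 passing with the largest difference and up to 3 passing against the direction of most, or any member of a list under 25 genes; genes chosen by the position of injured array 3; and defining markers. Exceptions are stated. On simulated data of 14329 genes, the fit recovered 53.7% of 67 changes of 1.5-fold, 94% of 67 of 2-fold and 98.5% of 66 of 4-fold. Far fewer genes were changed there than the 25.8% that passed in the real data, which limits the comparison. Alternatives were the PCA groups alone, each PCA array left out, the replicate number as a block, no high-thyroid arrays, mean probe sets, another variance prior, array weights, centred arrays, a filter on dim genes, marker scores as covariates and a threshold of 0.01. The number of arrays limits the precision.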

Additional observations from a re-analysis of the deposited data

Results flagged for a closer look

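For 2 genes named in the results the effect of injury in the PCA differed from that in the adductor complex by limma's test of the difference. Kif23, the midbody motor, was 1.29 ± 0.15 higher in injured than in control PCA and differed by -0.03 ± 0.15 in the AC, a difference between the muscles of 1.32 ± 0.21 (adjusted p = 0.0458). Anxa2, the membrane-repair annexin, was 0.91 ± 0.09 higher in injured PCA and differed by -0.01 ± 0.09 in the AC, a difference of 0.92 ± 0.12 (adjusted p = 0.027). Across all genes this difference passed for 22, or 0.154%.

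Probe sets that the results leave out also held differences between injured and control PCA. Of 11922 probe sets with no gene symbol, 755 were higher and 953 lower in injured PCA at an adjusted p under 0.05, and with the PCA groups fitted alone 429 were higher and 470 lower. Of 317 probe sets with several symbols, 24 were higher and 16 lower.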

How the results depend on the processing

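The count of genes that passed, 3697 (1900 higher and 1797 lower), was 2257 with the PCA groups fitted alone (1263 and 994), 2335 without the high-thyroid arrays (1243 and 1092), 530 once the squamous score was a covariate (223 and 307), 0 once the macrophage score was (0 and 0; 782 and 467 at an unadjusted p under 0.05) and 1865 at a threshold of 0.01 (1069 and 796). Leaving out single PCA arrays gave 2466 to 3558 (1361 to 1790 higher and 1105 to 1810 lower). Mean probe sets, the other prior, array weights, centring and the dim filter gave 3695 to 3906, and centring gave 1733 higher and 2011 lower. With the replicate number as a block 842 passed (493 and 349). The labels do not say whether same-numbered arrays belong together. Deviations of same-numbered arrays correlated at -0.237, -0.381 and 0.0824. The highest correlation of any pair, 0.655, was between injured array 2 and control array 1, both high-thyroid arrays. With thyroid transcripts shared by that pair, these correlations cannot decide whether the numbers pair the arrays. Of 67 list counts above 0, those that moved by over 1.5 times were 25 with the PCA groups alone, 62 with the block, 33 without high-thyroid arrays, 66 and 67 with the squamous and macrophage scores, 11 to 25 without single arrays and 0 to 7 under the rest. Probe sets without 1 symbol that passed were 1748, and 921 with the PCA groups alone. The 0 of 40 genes whose effects differed between the muscles was 21 without control array 2 and 0 without any other array. Signs of named genes were not compared in the fits with marker scores as covariates. In the other fits, named genes whose difference changed sign had not passed: with single arrays left out Bmal1 lay between -0.24 and 0.02, above 0 without injured array 1, Cd163 between -0.10 and 0.47, below 0 without control array 1, and Hspa5 between -0.10 and 0.29, below 0 without injured array 2 and, at -0.03, without control array 2. The cause of these moves was not tested beyond the fewer arrays of the smaller fits. Whole tissue, 3 arrays a group and normalisation to a common distribution limit all of these values.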
